A study of Mus musculus with 8 samples.

Results

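The cytochrome P450 genes of families 1 to 4 were followed in hepatocyte chromatin before and after partial hepatectomy (PHx), an operation in which liver lobes are taken out and the remnant grows back. The members were all protein-coding mouse genes of the GENCODE M21 basic annotation with a symbol of Cyp, a family digit from 1 to 4, a subfamily letter and a gene number, without Cyp2e1, Cyp1a2 and Cyp2f2, which the rule left out. This gave 72 of 21938 coding genes, of which 2 belonged to family 1, 46 to family 2, 7 to family 3 and 17 to family 4. They lay in 16 loci, 7 of them clusters of 2 or more genes (neighbours less than 1 Mb apart) and 9 single genes. The rule itself uses no measured value.

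Microsomal P450 enzymes are haem proteins of the endoplasmic reticulum that insert oxygen into lipophilic substrates, with electrons supplied by cytochrome P450 oxidoreductase (Por). Families 1 to 3 include the liver's main enzymes for drugs, foreign chemicals and steroids, and family 4 hydroxylates fatty acids and leukotrienes. Many are expressed chiefly in mature hepatocytes, where the receptors AhR, CAR (Nr1i3), PXR (Nr1i2) and PPARα and the factors HNF4α, FOXA and C/EBP are known to act on them.

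Bulk ATAC-Seq marks open DNA by the insertion of adapters with Tn5 transposase, and had been run on nuclei of hepatocytes from C57BL/6 mice (C57BL/6J by the study's methods) of 10 to 12 weeks on a normal diet. The age is that of the labels, and the study's methods give a slightly lower one at surgery. The hepatocytes were isolated by 2-step collagenase perfusion of undamaged liver (0 h) and of liver at 48, 72 and 96 h after PHx, each of these 4 time points being represented by 2 libraries. All groups shared the strain, the diet and the perfusion, the mice were male by the study's methods, and no sham-operated group was among the libraries. Nothing in the labels says that the 2 libraries of a time point came from separate animals, although the study's text calls its replicates biological and counts as many hepatocyte preparations as mice. For 0 and 48 h the study describes more replicates of the bulk assay, which were not analysed here.

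The deposited peak list of each library gives intervals with a −log10 p. Rows with the same interval were collapsed to the highest −log10 p and intervals were ranked within a list, so that rank 1 is the strongest. A promoter took the rank of the strongest interval within 1 kb of any annotated start site of the gene, and a gene with none was "not listed" and placed below every rank. A promoter was called higher or lower at a time point where both libraries ranked past both 0 h libraries. With 2 libraries against 2 the smallest exact two-sided p is 0.333, so no call carries a p-value, and each count of members is read beside the share of all promoters called by the same rule. The 48, 72 and 96 h comparisons share the same 0 h libraries.

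The lists held 105206 to 154577 distinct intervals, the fewest at 0 h replicate 2 and the most at 72 h replicate 2, and the −log10 p at rank 100000 ran from 2.54 (0 h replicate 2) to 4.91 (72 h replicate 1). The list of 72 h replicate 2 also bears a run name of another form than the other 7. Of 8 hepatocyte markers, 8 and 8 had a listed promoter at 0 h, then 4 and 6 at 48 h, 7 and 7 by 72 h and 8 and 7 at 96 h. Markers of other liver cells were listed only in part: 1 to 3 of 5 for endothelium, 0 or 1 of 5 for macrophages, 2 to 4 of 5 for stellate cells, 2 to 4 of 5 for cholangiocytes and 0 of 4 for lymphocytes. The hepatocyte label was therefore borne out by its own markers at 0 h, and fewer of those markers were listed at 48 h. In bulk libraries a smaller share of cells with an open site and a less open site in each cell cannot be told apart.

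The P450 promoters were almost all poor in CpG dinucleotides. In 500 bp around the start site 69 of 72 members (95.8%) had an observed to expected CpG ratio under 0.6, against 49.1% of coding genes. The 3 exceptions were Cyp4v3 (0.67), Cyp2r1 (0.74) and Cyp2u1 (0.77). An interval lay at the promoter of 55 members in at least 1 list. It did so in all 8 lists for 27 members (37.5%), compared with 60.3% of all coding promoters and 28.8% of the 10780 CpG-poor ones, and in none for 17 (23.6%), compared with 25.1% and 48.6%. Per library, 36 to 48 members were listed. Where listed, their median rank lay between 29004 and 57014, lower in the lists than the median of all listed coding promoters (11317 to 16252) and nearer to that of the CpG-poor ones (23996 to 34168).

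**Figure D1:**
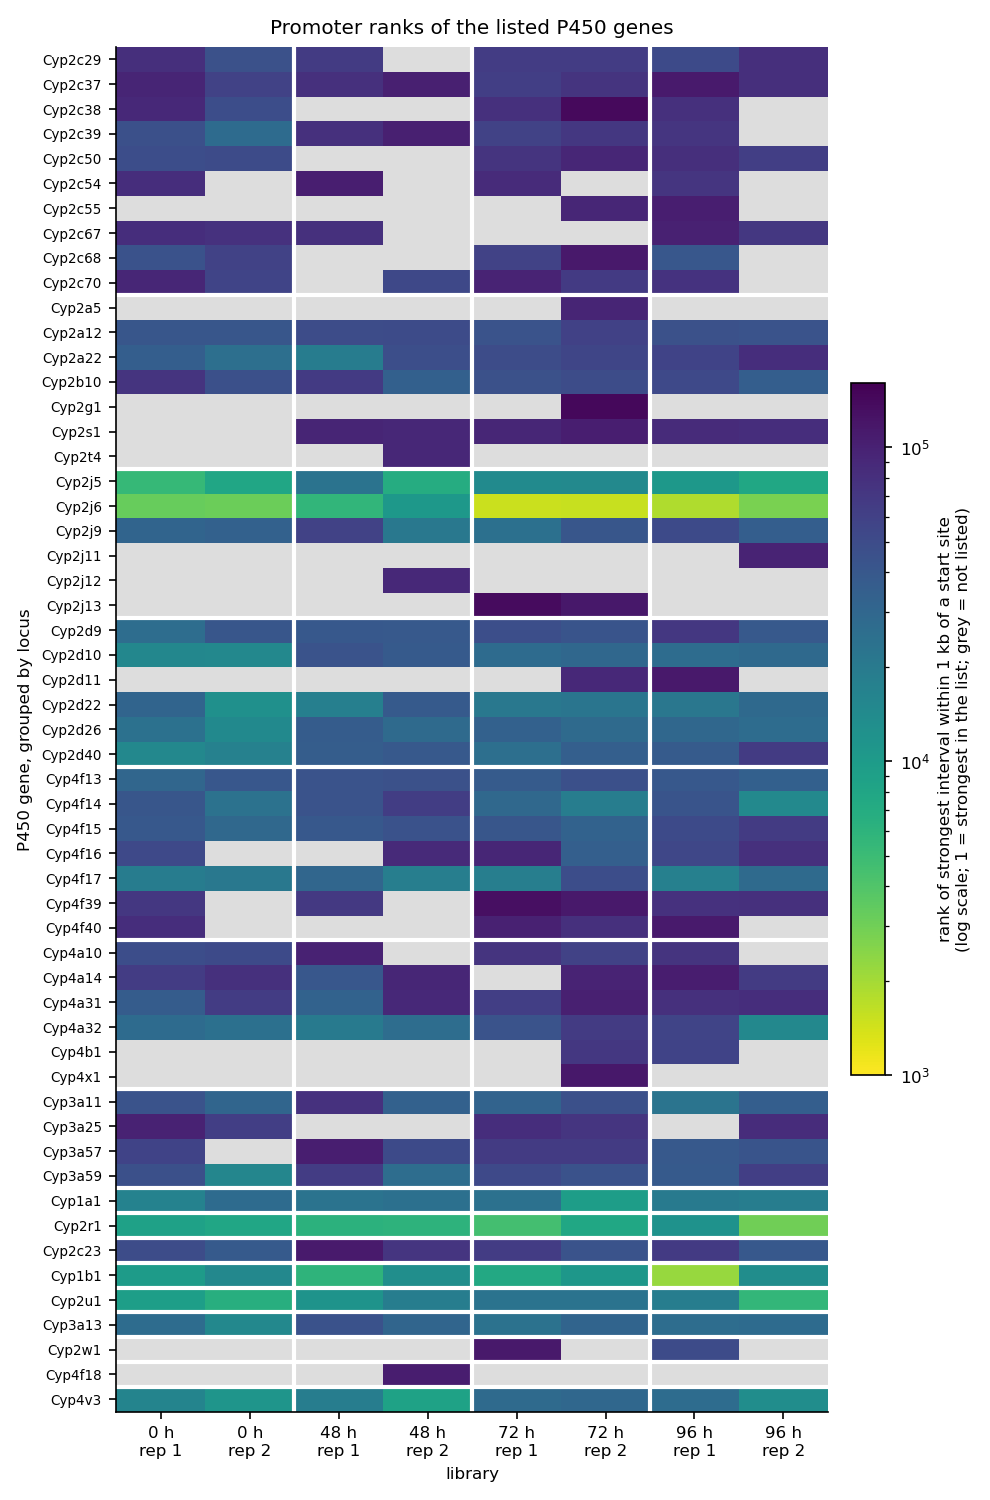
Rank of the strongest interval within 1 kb of a start site (colour, log scale; 1 is the strongest of a list; grey, not listed) for the 55 P450 genes listed at least once, in rows grouped by locus, in each of the 8 libraries (columns). Cyp2j6 has the strongest rank in 7 of the 8 columns, the Cyp2d promoters hold the middle ranks, and the Cyp2c rows have the most grey cells at 48 h.

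The Cyp2d promoters illustrate how alike neighbours of 1 cluster can be while they differ in rank. RefSeq windows from 250 bases before to 50 after the start site (GRCm38.p6) were matched to 59 of the 72 members, among them 5 of the 8 Cyp2d genes. The longest run shared by those 5 was 10 bases long, holds the letters of a TATA box and occurs in 20 of 16310 coding promoters on either strand. Each sequence below is 80 bases long, reads 5′ to 3′ on the gene's own strand, ends before the RefSeq start site and has the shared run in capitals. In order they are chr15:82407207-82407286 (minus strand), chr15:82764195-82764274 (minus), chr15:82794258-82794337 (minus), chr15:82452288-82452367 (plus) and chr15:82394047-82394126 (minus).
Cyp2d10: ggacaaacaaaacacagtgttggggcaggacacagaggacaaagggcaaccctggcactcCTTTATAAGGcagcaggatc
Cyp2d40: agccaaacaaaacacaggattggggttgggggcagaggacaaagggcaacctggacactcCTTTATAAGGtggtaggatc
Cyp2d26: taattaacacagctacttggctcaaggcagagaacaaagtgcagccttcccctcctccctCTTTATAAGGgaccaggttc
Cyp2d9: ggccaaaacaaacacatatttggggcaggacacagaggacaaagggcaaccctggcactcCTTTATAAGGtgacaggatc
Cyp2d11: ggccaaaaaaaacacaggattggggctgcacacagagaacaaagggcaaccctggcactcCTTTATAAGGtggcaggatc
Cyp2d10, Cyp2d40, Cyp2d26 and Cyp2d9 were listed in all 8 libraries, whereas Cyp2d11, with nearly the same letters here, was listed only at 72 h replicate 2 (rank 89886) and 96 h replicate 1 (114024). The summits of the 2 Cyp2d11 intervals lay 472 and 511 bases past the start, outside the stretch printed. Of the 50-base words within 1 kb of the start, 31.7% occur more than once in the genome for Cyp2d11 and 32% for Cyp2d9. The part of repeated sequence in the listing of either gene was not tested.

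Binding letters of the liver factors were sought on both strands of the same RefSeq windows. The HNF4 letters CAAAGTCCA were present in 8 of the 59 matched members (13.6%), compared with 0.454% of all 16310 coding windows and 0.705% of 7663 CpG-poor ones. The members with a match came from only 2 clusters, Cyp2c and Cyp3a, whose genes descend from common ancestors and share flanking bases, so they are not independent cases. Of these windows, 5 are shown because they span genes listed in every library and genes listed in none. Each is 61 bases long, with the match in capitals, on the minus strand of chr5:145879929-145879989, chr5:145469788-145469848, chr19:40187316-40187376, chr19:39741144-39741204 and chr19:39812825-39812885.
Cyp3a11: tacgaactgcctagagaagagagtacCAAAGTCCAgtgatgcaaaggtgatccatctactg
Cyp3a16: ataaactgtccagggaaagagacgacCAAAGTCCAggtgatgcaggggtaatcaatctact
Cyp2c70: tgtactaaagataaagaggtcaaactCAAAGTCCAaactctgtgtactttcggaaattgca
Cyp2c68: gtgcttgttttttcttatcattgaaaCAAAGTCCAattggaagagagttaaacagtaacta
Cyp2c40: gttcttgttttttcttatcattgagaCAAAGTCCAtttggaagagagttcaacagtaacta
The promoter was listed in 8 libraries for Cyp3a11, 6 for Cyp2c70 and 5 for Cyp2c68, and in 0 for Cyp3a16 and Cyp2c40. The letters alone did not separate listed from unlisted genes. Of the other letters searched, TTGCNNAA (C/EBP) was in 15 members (25.4%, against 10.2% of all and 13.9% of CpG-poor windows), AGGTCA (a nuclear receptor half-site) in 17 (28.8%, against 14.1% and 18.4%) and TGTTTAC (FOXA) in 6 (10.2%, against 2.95% and 3.9%). TGANTCA (AP-1) was in 6 members (10.2%, against 6.97% and 10.7%), TTCNNNGAA (STAT5) in 4 (6.78%, against 7.73% and 9.88%) and TTGCGTG (AhR) in 0 (against 1.36% and 0.94%), shares at or under those of CpG-poor windows. These matches describe letters in the windows and were not measured as sites of binding.

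The first comparison asked how the promoters of the P450 genes stood in the lists after PHx relative to 0 h. At 48 h, 2 members ranked higher (2.78% of 72) and 16 lower (22.2%), beside 11.6% and 18.7% of all coding promoters. At 72 h the counts were 4 higher (5.56%) and 16 lower (22.2%), beside 11.7% and 20.4%. At 96 h they were 3 higher (4.17%) and 11 lower (15.3%), beside 10.1% and 12.9%. The shares of lower calls were thus close to those of all coding promoters, and the shares of higher calls were under them at each time.

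Because CpG-poor promoters behave differently in the lists, the CpG-poor members were also set beside the CpG-poor coding genes. Of the 69, 1 was higher and 15 were lower at 48 h (1.45% and 21.7%, beside 7.82% and 8.58%), 3 and 14 at 72 h (4.35% and 20.3%, beside 8.91% and 9.2%) and 3 and 11 at 96 h (4.35% and 15.9%, beside 6.68% and 7.16%). Here the members' lower calls were more frequent than the background's. A gene listed nowhere cannot be called, however, and such genes made up 48.6% of the CpG-poor background. When percentiles within the list replaced ranks, which favours the longer lists, the 72 members split into 3 higher and 15 lower at 48 h (4.17% and 20.8%, beside 13.7% and 14.7% of coding promoters), 9 and 10 at 72 h (12.5% and 13.9%, beside 19.1% and 10.9%) and 5 and 8 at 96 h (6.94% and 11.1%, beside 15.3% and 8.05%). The size of the excess of lower over higher calls at 72 h therefore depended on the scale.

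The median change over the 72 members was 0.00 at each time, as it was over all coding promoters (log2 of the 0 h rank over the later rank, from means of log2 ranks, so that a negative value is a fall in the list; an unlisted promoter was put at 154578, 1 place below the longest list). These medians include the promoters listed nowhere, at 0. Over those listed at least once the medians were −0.25, −0.10 and −0.11 for 55 members, against −0.09, −0.11 and −0.01 for all coding promoters and 0.00 at each time for CpG-poor ones. In all 6 PHx libraries at once, 1 member outranked both 0 h libraries (1.39%, beside 2.95% of coding promoters) and 7 were outranked by both (9.72%, beside 5.02%). Among CpG-poor members these were 1 (1.45%, beside 1.98%) and 7 (10.1%, beside 2.84%). The 7 were Cyp2a12, Cyp2c39, Cyp2c50, Cyp2d10, Cyp2d26, Cyp2d40 and Cyp4a10, and the 1 was Cyp2s1. Of the 7, Cyp2c39, Cyp2c50 and Cyp2d40 were also called by percentile and by the order of fold enrichment, as was Cyp2s1. The hepatocyte markers moved with these genes: 6, 5 and 4 of 8 were lower at 48, 72 and 96 h, with Alb, Tat and Ttr among them each time. Among markers of other cells, the stellate genes Des and Reln were higher at 48 h and Reln and the endothelial Tek at 96 h, and 1 of 5 cholangiocyte markers was lower at 48 and 72 h. The part of these markers in the P450 counts was not tested.

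**Figure D2:**
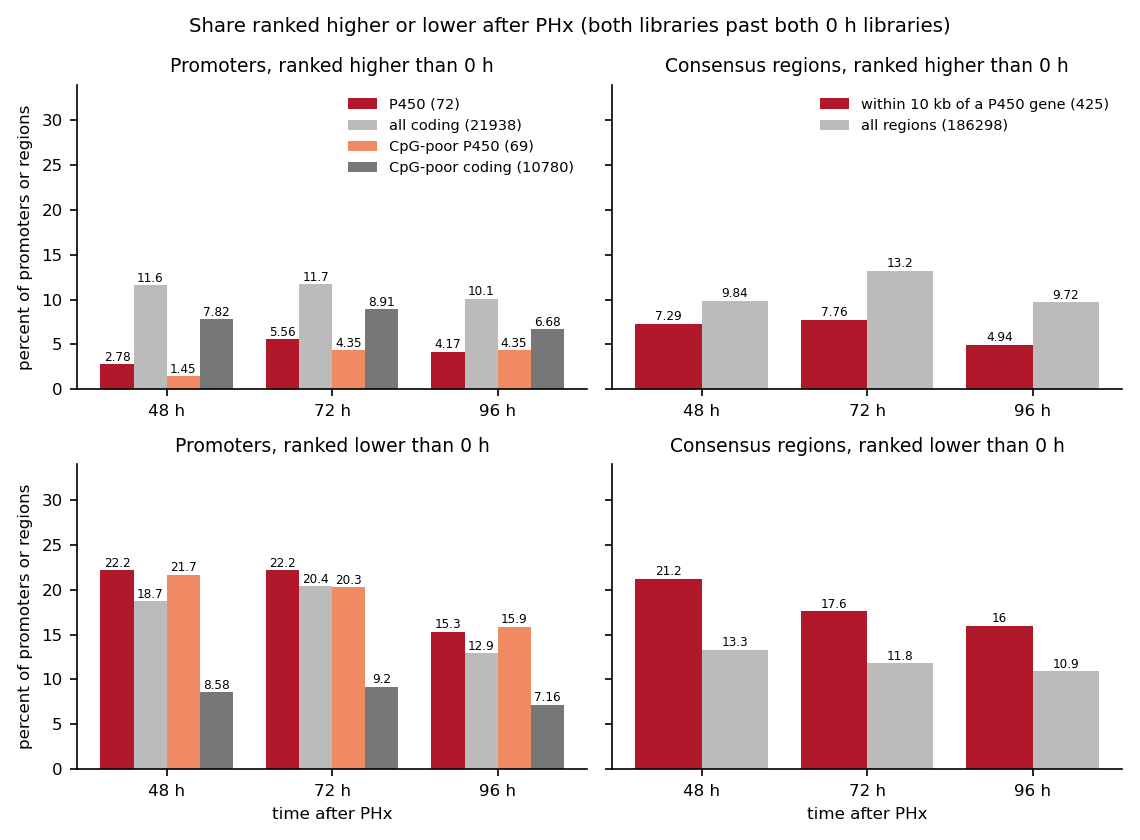
Percent of promoters (left) and of consensus regions (right) that ranked higher (top) or lower (bottom) than 0 h at each time after PHx, for P450 genes and their backgrounds, with the number of promoters or regions in brackets. Higher calls of P450 promoters (2.78 to 5.56%) stay under the coding background (10.1 to 11.7%), while lower calls of P450 regions (16 to 21.2%) stand above that of all regions (10.9 to 13.3%).

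The liver-enriched P450 genes, a list of 24 members drawn from textbook knowledge with earlier results of these data known, held none of the higher calls and most of the lower ones. All 24 were listed at least once and 14 in all 8 libraries, whereas 25.1% of all coding promoters were listed nowhere and could not be called. At 48 h 9 were lower, at 72 h 12 and at 96 h 7, with 0 higher at any time, beside 18.7, 20.4 and 12.9% lower of all coding promoters, and the list's median change was −0.44, −0.36 and −0.44. Of 8 members known mainly from tissues or cells other than hepatocytes, 1 (Cyp2s1) was higher and 0 were lower at each time, a share of higher calls close to that of all coding promoters (11.6, 11.7 and 10.1%). Of 6 genes known for strong induction by foreign chemicals or fasting, 1, 2 and 1 were lower and 0 higher. None of 7 female-predominant members (Cyp2a4, Cyp2b9, Cyp2b13, Cyp2c40, Cyp2c69, Cyp3a16 and Cyp3a44) was listed in any library of these male mice. Their start sites lie in duplicated sequence, where 11.5 to 51.9% of 50-base words occur more than once in the genome and aligned reads can be lost, and the part of this was not tested.

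Cyp2d genes, which include the steroid hydroxylase Cyp2d9 and the gene Cyp2d22 often likened to human CYP2D6, included several of the promoters that ranked lower throughout. The cluster spans chr15:82370527-82794294, and 3 of its 8 promoters were lower at 48 h, 4 at 72 h and 3 at 96 h, with 0 higher, beside 18.7, 20.4 and 12.9% lower of all coding promoters. Cyp2d10 ranked 15278 and 15096 at 0 h, then 43841 and 38332 at 48 h, 27265 and 29435 by 72 h, and 26417 and 28424 at 96 h. Both 0 h libraries stood clear of every PHx library, with changes of −1.43, −0.90 and −0.85. By order of fold enrichment the change kept its sign at 48 h but turned to 0.03 at 72 h and 0.08 at 96 h. Cyp2d40 ranked 14855 and 17319 at 0 h, then 35839 and 39132 at 48 h, 24888 and 34242 by 72 h, and 37039 and 66306 at 96 h, again with no overlap (−1.22, −0.86 and −1.63), also by percentile and fold enrichment. At 48 h replicate 2 that rank is of an interval farther upstream, and the interval at the start site ranked 62808 there, so that the 48 h change at the start site was −1.56. Cyp2d26 ranked 24329 and 14311 at 0 h, then 36234 and 27849 at 48 h, 33011 and 27707 by 72 h, and 29132 and 26483 at 96 h. Its groups did not overlap either, but 0 h replicate 1 lay only just above the highest PHx library, and by fold enrichment it gave no call at any time, nor by percentile at 72 h. Cyp2d9 was lower only at 72 h (26328 and 41228 at 0 h against 47556 and 42816), a call lost by percentile and by fold enrichment, and Cyp2d22 (31078 and 12454 at 0 h) overlapped with every later group.

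Cyp2c genes, mostly arachidonic acid epoxygenases and steroid hydroxylases, lost promoters from the lists at 48 h. Of the 14 genes of the cluster at chr19:39007019-40187333, 9 and 8 were listed at 0 h, then 5 and 3 at 48 h, 8 and 8 by 72 h, and 10 and 4 at 96 h, so both 48 h libraries listed fewer than both 0 h libraries, and so did 96 h replicate 2. Lower calls numbered 4, 4 and 2, with 0 higher, beside 18.7, 20.4 and 12.9% lower of all coding promoters, to which the 96 h count is close. Cyp2c39, a retinoic acid hydroxylase, ranked 46192 and 27192 at 0 h, then 79629 and 103380 at 48 h, 59359 and 69654 by 72 h, and 73326 and not listed at 96 h. Cyp2c50 ranked 48097 and 49990 at 0 h, was listed in neither 48 h library, and ranked 74408 and 93140 at 72 h and 80827 and 61890 at 96 h. Both were below 0 h in every PHx library, by percentile and fold enrichment too. The strongest interval lay up to about 1 kb upstream of the start site in both 48 h libraries for Cyp2c39 and in 1 library of 0 h and of 72 h for Cyp2c50, and within 500 bp the changes stayed negative at each time. Cyp2c68 (44276 and 59184 at 0 h) and Cyp2c38 (88715 and 48035) were listed in neither 48 h library. At 96 h they were listed in replicate 1 only, Cyp2c68 at 40467, above both 0 h ranks, and Cyp2c38 at 78499, between them. For Cyp2c38 the interval lay near the start site in 0 h replicate 1 and about 1 kb upstream in 0 h replicate 2 and 96 h replicate 1, so these ranks are of different intervals.

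Cyp2c67 was lower at 72 h only, at 82882 and 76904 against neither library listed. Cyp2c70, Cyp2c37 and Cyp2c29 gave no call by rank. Cyp2c70, which makes the muricholic bile acids of rodents, ranked 92993 and 56645 at 0 h and 52911 in the only 48 h library that listed it. Cyp2c37 was listed in all 8 libraries between 59185 and 110698 with overlapping groups, though it was higher at 72 h by percentile. Cyp2c29 was listed in 7 libraries between 45696 and 80238, at an internal start site, the 45696 being of an interval farther upstream than the rest. Of the 50-base words around its most upstream start, 85% occur more than once in the genome. That share was not computed for the internal start. Cyp2c23, an epoxygenase gene that lies apart at chr19:44005022-44029208, was lower at 48 h (49320 and 37834 against 110521 and 73433) and overlapped with 0 h at the later times.

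In the Cyp2a, Cyp2b, Cyp2g, Cyp2s and Cyp2t cluster (chr7:25802475-27158668, 12 genes) the members went different ways. Cyp2s1, an enzyme known from epithelia outside the liver, was listed in neither 0 h library and in all 6 PHx libraries, at 93747 and 90433 (48 h), 93200 and 103951 (72 h) and 85214 and 82665 (96 h). These ranks lay in the weak part of each list, though within the 105206 intervals of 0 h replicate 2. Because the promoter had no rank at 0 h, no size of change can be given. Cyp2a12, a steroid hydroxylase, ranked 41161 and 41334 at 0 h and between 43240 and 59820 in the 6 PHx libraries. This narrow gap was lost by percentile at each time and by fold enrichment at 72 and 96 h, and the percentile change turned to 0.04 at 72 h and 0.13 at 96 h. Cyp2a22 ranked 34837 and 25251 at 0 h and fell to 49020 and 55541 at 72 h and 58156 and 82667 at 96 h, while its 48 h ranks (19095 and 47468) lay on either side of those at 0 h. Cyp2b10, the gene that phenobarbital induces through CAR, ranked 74926 and 46575 at 0 h and between 33835 and 68055 after PHx, with no call by rank, though it was higher at 72 and 96 h by percentile. Cyp2a5, a coumarin hydroxylase, was listed only at 72 h replicate 2 (94311), and 51.9% of the words around its start are repeated.

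**Figure D3:**
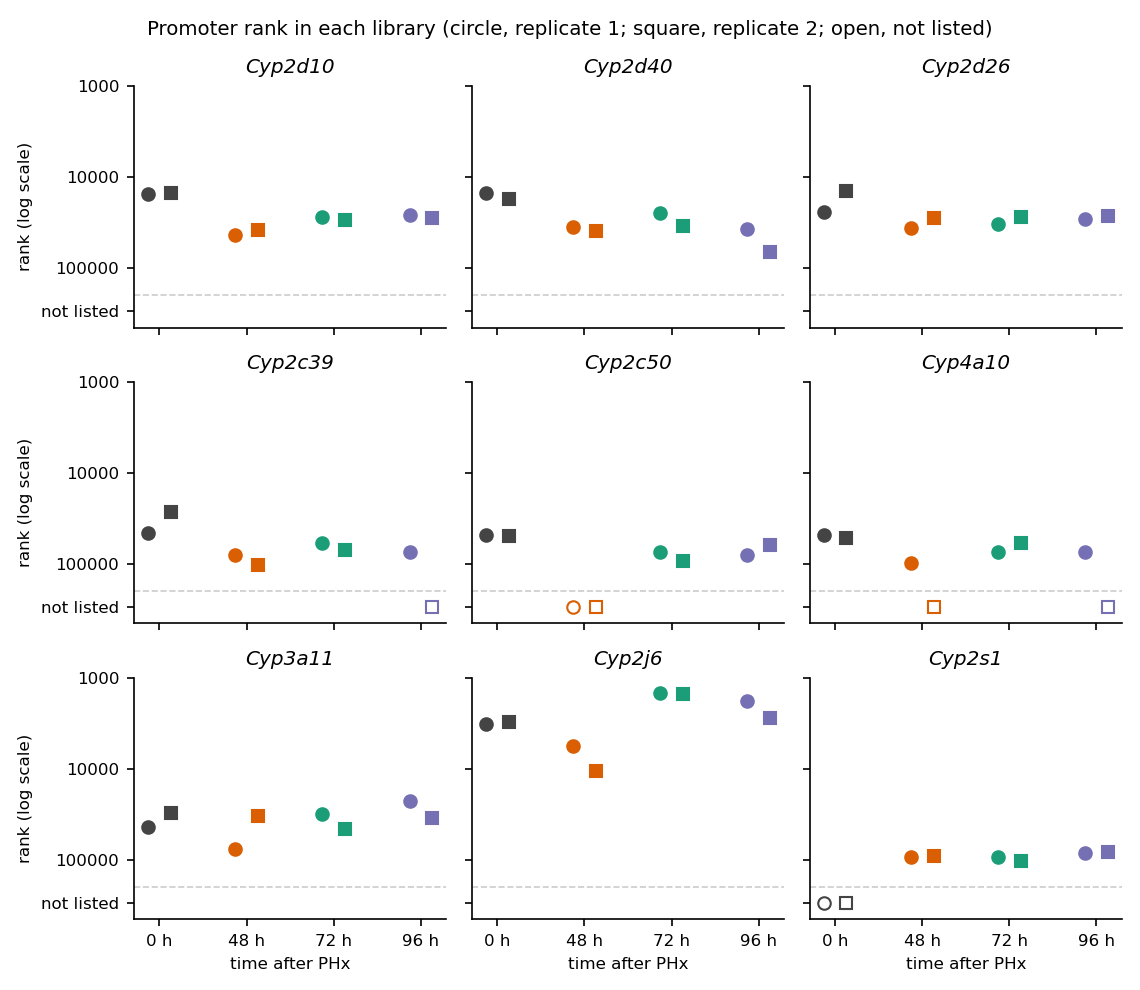
Rank of the promoter interval of 9 P450 genes in each library against time after PHx (log axis, strongest at the top; circles, replicate 1; squares, replicate 2; open symbols under the dashed line, not listed). The 0 h points of Cyp2d10, Cyp2d40, Cyp2d26, Cyp2c39, Cyp2c50 and Cyp4a10 lie above all later points, those of Cyp2s1 lie below, Cyp3a11 overlaps at each time, and Cyp2j6 is below 0 h at 48 h and above it at 72 and 96 h.

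The Cyp2j genes, epoxygenases of arachidonic and linoleic acid, include the strongest P450 promoter of 7 of the 8 libraries, that of Cyp2j6. It ranked 3234 and 3114 at 0 h, then 5618 and 10673 at 48 h, 1487 and 1527 by 72 h, and 1814 and 2801 at 96 h. Cyp2j6 was thus lower at 48 h (−1.29) and higher at 72 h (1.07) and 96 h (0.49), with no overlap with 0 h at any time. Cyp2j5 ranked 5374 and 7954 at 0 h, then 22939 and 6895 at 48 h, 14063 and 14596 by 72 h, and 10620 and 7773 at 96 h, and was lower at 72 h only, not by fold enrichment. Cyp2j13 was listed in both 72 h libraries and no other (137496 and 115551), ranks that lie past the end of the list of 0 h replicate 2.

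Cyp3a11, the main drug-metabolising Cyp3a enzyme of mouse liver and a target of PXR, overlapped with 0 h at each time by −log10 p rank, while it was called lower at 48 and 72 h by fold enrichment and higher at 96 h by percentile. Its promoter ranked 43458 and 30692 at 0 h, then 76939 and 33309 at 48 h, 31681 and 45997 by 72 h, and 22536 and 35080 at 96 h. Cyp3a13, a related gene that lies apart at chr5:137892932-137921619, was lower at 48 h only (26815 and 14879 against 44258 and 30832). Its strongest interval lay at the start site in some libraries and upstream in others, and within 500 bp the 48 h change was −0.33 in place of −0.89. Cyp3a57 was higher at 96 h only, at 38660 and 43142 against 57570 and not listed at 0 h.

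Family 4 genes hydroxylate the ends of fatty acid and eicosanoid chains. Cyp4a10, a target of PPARα, ranked 48222 and 51648 at 0 h, then 98637 and not listed at 48 h, 74720 and 58486 by 72 h, and 74519 and not listed at 96 h, and was lower at each time, except by percentile at 72 h. In each library that listed it but 48 h replicate 1, this interval lay near the 1 kb limit of the promoter, and within 500 bp the change turned positive (0.32, 0.24 and 0.26). Cyp4a14, another target of PPARα, was lower at 72 h only (64872 and 79920 against not listed and 96393), not by percentile. Cyp4f14, a leukotriene B4 hydroxylase, was lower at 48 h only (41443 and 23406 against 43269 and 63181), not by fold enrichment, and was higher at 72 h by percentile. Cyp4v3, a fatty acid hydroxylase also active in the eye, was lower at 72 h only (16121 and 11389 against 27730 and 29193). Cyp4b1, known best from lung, was listed only at 72 h replicate 2 (69912) and 96 h replicate 1 (58018).

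The remaining members are single genes and those of family 1. Cyp2r1, which adds a hydroxyl group to vitamin D, ranked 8851 and 7867 at 0 h and was higher at 48 h (6101 and 5992) and at 72 h (4559 and 7827), the latter only just in replicate 2, and spread to 11926 and 2979 at 96 h. Cyp2u1, a fatty acid hydroxylase, ranked 9301 and 6663 at 0 h and was lower at 48 h (11839 and 18692, not by fold enrichment) and 72 h (23327 and 22941), whereas 18602 and 5555 at 96 h lay on either side of 0 h. Cyp1a1 and Cyp1b1, the AhR-induced genes of family 1, gave no call, except that Cyp1b1 was higher at 72 h by percentile. Cyp1a1 ranked between 9545 and 27101 over the 8 libraries and Cyp1b1 between 2173 and 14952. In each library the summit of the Cyp1a1 interval lay about 1 kb upstream of the RefSeq start. That of Cyp1b1 lay at −717 to −682 bases from the start, so neither set of ranks describes the start site itself.

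The second comparison took in the whole loci. The 100000 strongest intervals of each library were merged into 186298 consensus regions, of which 425 overlapped a P450 gene body or its 10 kb flanks. Of these 168 (39.5%) lay in introns, 128 (30.1%) between genes, 72 (16.9%) at promoters of coding genes and 57 (13.4%) in exons. A region within an annotated gene span but outside promoters and exons was counted as intron. At 48 h 31 ranked higher than at 0 h (7.29%) and 90 lower (21.2%), beside 9.84% and 13.3% of all regions. At 72 h 33 were higher (7.76%) and 75 lower (17.6%), beside 13.2% and 11.8%. At 96 h 21 were higher (4.94%) and 68 lower (16%), beside 9.72% and 10.9%.

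In all 6 PHx libraries 4 regions were higher (0.941%) and 34 lower (8%), beside 1.89% and 3.83%. The 34 lower ones comprised 15 between genes, 9 at promoters, 8 in introns and 2 in exons. Lower calls were thus more frequent, and higher calls less frequent, around P450 genes than over all regions at each time by rank. By percentile the lower calls remained above the background (17.2% at 48 h, 10.4% at 72 h and 9.18% at 96 h, beside 10.4%, 5.49% and 6.53%). The split of higher and lower calls turned to 72 and 44 at 72 h and to 43 and 39 at 96 h. Higher calls also outnumbered lower ones over all regions on this scale, and the P450 higher shares (16.9% and 10.1%) stayed under those of all regions (21.4% and 13.9%). Leaving out 72 h replicate 2 gave 101 higher and 99 lower at 72 h (23.8% and 23.3%, beside 25.4% and 18.4%). Leaving out 96 h replicate 2 gave 116 and 99 at 96 h (27.3% and 23.3%, beside 26.7% and 18.3%), where higher calls were no longer less frequent than over all regions. The median change over the 119 P450 regions present in all 8 libraries was −0.30, −0.28 and −0.23, against −0.05, −0.04 and −0.04 over 57432 such regions genome-wide.

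By locus, lower calls outnumbered higher calls at each time in the Cyp2d cluster (43 regions; 12, 13 and 9 lower and 4, 3 and 2 higher at 48, 72 and 96 h) and the Cyp4f cluster (36 regions; 11, 9 and 9 lower and 1, 3 and 1 higher). In the Cyp4a, Cyp4b and Cyp4x cluster (36 regions) 8, 10 and 9 were lower and 2, 3 and 0 higher. The Cyp2c cluster, with 85 regions the largest set, had 13, 11 and 9 lower and 5, 3 and 3 higher, lower shares near those of all regions (13.3, 11.8 and 10.9%). Around Cyp1a1 4, 3 and 5 of 8 regions were lower and 0 higher, although the promoter of Cyp1a1 itself gave no call. The Cyp2j cluster was even (34 regions; 4, 3 and 3 lower and 3, 3 and 3 higher), and in the Cyp3a cluster (53 regions) 10, 5 and 7 were lower and 5, 5 and 6 higher.

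**Figure D4:**
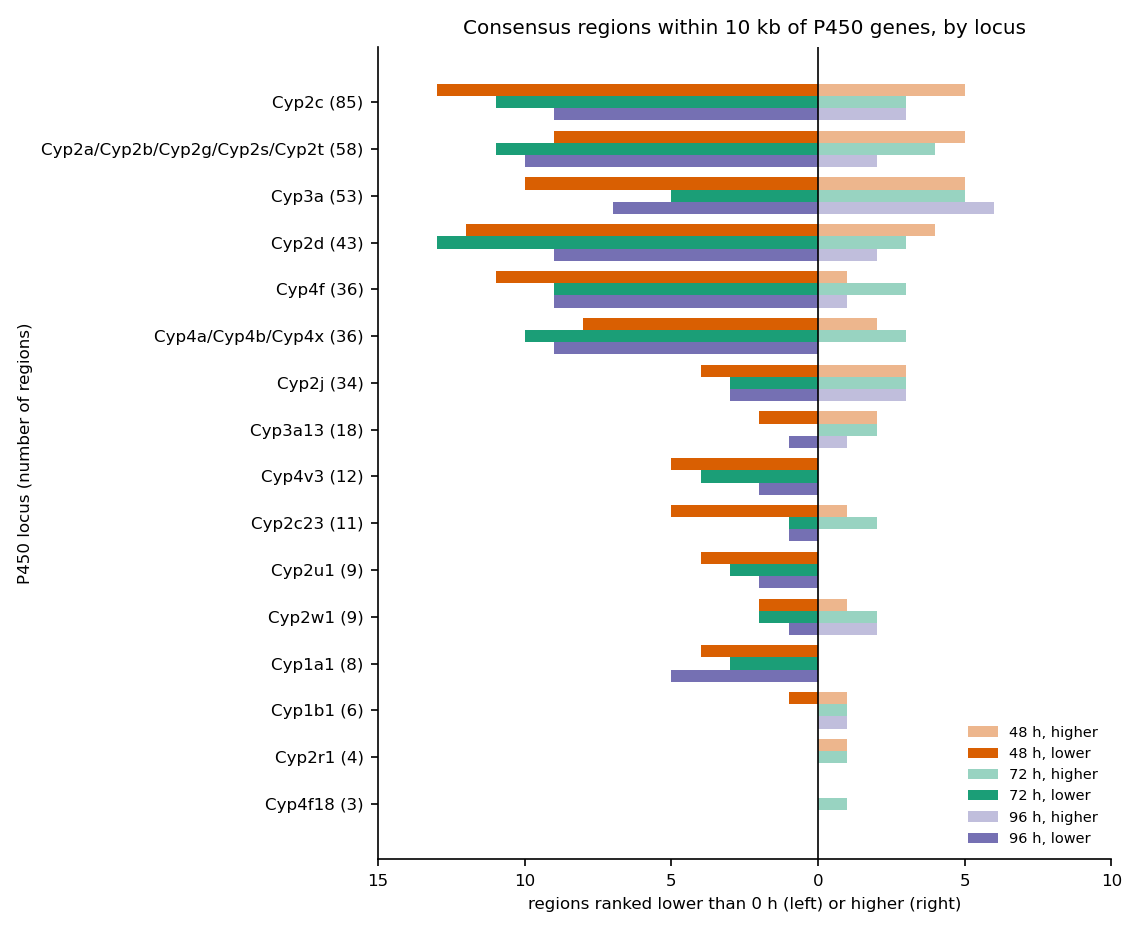
Number of consensus regions within 10 kb of P450 genes that ranked lower (bars to the left, full colour) or higher (bars to the right, pale) than 0 h at 48, 72 and 96 h, by locus, with the number of regions in brackets. The Cyp2d and Cyp4f loci have 9 to 13 lower regions and at most 4 higher at each time, and the Cyp2j locus is even.

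Beyond the promoters already described, the regions with the largest change in all PHx libraries included sites near Cyp3a11, Cyp2d9 and Cyp1a1. An intergenic region at chr5:145881250-145881573, 1447 bp from the start of Cyp3a11, ranked 56561 and 30882 at 0 h, then not listed and 109252 at 48 h, 77196 and 106766 by 72 h, and 107783 and not listed at 96 h. It stood below 0 h throughout, while the promoter of Cyp3a11 overlapped on the same scale. A region at chr15:82443425-82444306 lay within the annotated span of Cyp2d9 but upstream of the only start site used here. It is called intron below because of that span. The region ranked 38407 and 18109 at 0 h, then 69322 and 46955 at 48 h, 42290 and 85436 by 72 h, and 54660 and not listed at 96 h. The 2 sequences below are the 120 bases around the strongest summit of these regions, on the plus strand of mm10 at chr5:145881358-145881477 and chr15:82443815-82443934. The second holds the HNF4 letters, in capitals, and the first holds none of the letters searched.
Cyp3a11 upstream region: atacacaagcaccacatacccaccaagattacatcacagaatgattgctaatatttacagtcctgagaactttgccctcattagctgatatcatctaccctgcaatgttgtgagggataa
Cyp2d9 intron region: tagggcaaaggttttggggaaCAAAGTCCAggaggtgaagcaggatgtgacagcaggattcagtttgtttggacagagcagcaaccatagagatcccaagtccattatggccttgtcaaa
A region at chr9:57683439-57684059 lay at the promoter of Cyp1a2, 4179 bp from the more upstream of the 2 annotated starts of the neighbouring gene Cyp1a1. The RefSeq start of Cyp1a1 and its promoter interval lie farther downstream. This region ranked 51723 and 38204 at 0 h, was listed in neither 48 h library, and ranked 52198 and 55855 at 72 h and 97628 and 104727 at 96 h. At 72 h replicate 1 it lay only just below the weaker 0 h library. Regions near Cyp3a59 (chr5:146070075-146070611) and Cyp2d11 (chr15:82399363-82399607) were lower too, by 1.03 and 0.89 on the log2 scale. The only higher region among the 10 with the largest change lay at chr5:139343692-139344587, within 10 kb of Cyp2w1 but at the promoter of Cox19, a gene for assembly of cytochrome c oxidase. It ranked 26271 and 28618 at 0 h and between 7003 and 20832 in the PHx libraries.

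In the 200 bp around the summits the shares with letters of liver factors were as follows. HNF4 letters were in 1.18% of the 425 regions against 1.06% of all regions, and C/EBP letters in 15.3% against 11.4%. FOXA letters were in 5.65% against 4.24%, and in 10.9% of the 119 P450 regions present in all 8 libraries against 4.76% of all such regions. AP-1 letters were in 8% of the 425 against 7.92% and in 10.9% of the 119 against 7.51%. STAT5 letters were in 5.88% of the 425 against 5.57% and in 5.88% of the 119 against 5.27%. Some shares lay under the background: HNF4 letters were in 0.84% of the 119 against 1.41%, and the nuclear receptor half-site in 17.6% of the 425 against 18.5% and in 16.8% of the 119 against 19.2%. AhR letters were in 0.235% of the 425 against 0.516%, but in 0.84% of the 119 against 0.646%. These shares are descriptions over regions that share sequence within clusters.

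Genes that work with the P450 enzymes were not uniform. Of 8 partner genes, all listed in all 8 libraries, 1, 1 and 1 were higher and 3, 4 and 1 lower at 48, 72 and 96 h, beside 11.6, 11.7 and 10.1% higher and 18.7, 20.4 and 12.9% lower of all coding promoters. Por, the reductase on which every microsomal P450 depends, ranked 490 and 402 at 0 h, then 1435 and 914 at 48 h, 946 and 595 by 72 h, and 1463 and 987 at 96 h. Its promoter stayed among the strongest of each list but below 0 h in every PHx library. Hmox1, which degrades haem, ranked 16579 and 16880 at 0 h and between 7310 and 11166 in all PHx libraries. Cyb5a, another electron donor, was lower at 48 h (8680 and 12250 against 36554 and 16908) and 72 h (13543 and 14378).

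Of 16 regulator genes, 2, 2 and 5 were higher and 5, 6 and 4 lower, beside the same shares, the higher calls at 48 and 72 h being close to them. Nr1i3, which encodes CAR, ranked 34408 and 42933 at 0 h, then 54211 and 70670 at 48 h, 47730 and 60019 by 72 h, and 59049 and 43969 at 96 h, and was lower at each time. Ahrr, the repressor of AhR, was higher at each time (82296 and 44668 at 0 h, and between 21691 and 43193 after PHx). Hnf4a was lower at 48 h (2492 and 1918 against 5443 and 3415) and 96 h (4029 and 3793), and Nr1i2, which encodes PXR, was higher at 48 h only (24391 and 24660 against 16256 and 9677). Rxra, the partner of CAR, PXR and PPARα, was higher at 72 h (11257 and 11817 against 3537 and 7379) and 96 h (5426 and 2718).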

How the data were processed

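The sample labels gave the groups and replicate numbers. The authors, by the study's methods, ran the bulk ATAC-Seq libraries through the ENCODE pipeline, mapping trimmed reads to mm10 with Bowtie2, removing duplicates and calling peaks per library with MACS2. The deposited lists give for each peak a fold enrichment over local background (a ratio), a −log10 p, a −log10 q, a display score and a summit, all made by the authors' peak caller. The lists hold no read counts, so depth is unknown, no interval was computed for any rank, and no count test could be run.

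From these values, intervals of chromosomes 1 to 19, X and Y were collapsed and ranked by −log10 p. Fold enrichment, the q value (at 0.05), percentiles, other promoter widths and other flanks served as alternatives, and the score entered no comparison. Gene annotation was GENCODE M21, sequence GRCm38.p6, promoter windows RefSeq. Python 3.11.15, numpy 2.4.6 and pandas 2.3.3 were used, and the calling rule was tested on simulated lists.

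The members and gene lists were chosen with earlier results of these data known. The genes named were a textbook set of 20 members, the 10 best 0 h promoters, members called the same way at 2 or more times and the 3 largest changes per time and direction, 30 members in all, and the 10 regions with the largest change in all PHx libraries. Cyp2c23, Cyp2c38, Cyp2c67, Cyp2d11, Cyp2j13, the female-predominant genes and the HNF4-matched genes were named besides these after their values were seen. Region counts by percentile and the alternatives for single regions were added after the data were seen. A regulatory factor and its letters are not reported here.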

Additional observations from a re-analysis of the deposited data

Results flagged for a closer look

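The Cyp2j6 promoter went opposite ways at different times: its change in rank against 0 h was −1.29 at 48 h, 1.07 at 72 h and 0.49 at 96 h on the log2 scale. At 48 h both libraries ranked below both 0 h libraries, and at 72 and 96 h both ranked above them. The difference between the time points was not tested, and the 3 comparisons share the same 0 h libraries.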

How the results depend on the processing

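No paired analysis was possible because the results come from no test, and the labels do not say whether a replicate number marks a shared animal or day. Over 40 combinations of setting and time, P450 promoters had more lower than higher calls in 40, but so did all coding promoters in 34. P450 regions did in 26 of 30, the exceptions being named in the report, and all regions in 17. For regions these combinations include the main setting. In the other settings at single times the P450 share of higher promoters was under the background in 15 of 15 and that of lower promoters above it in 14. For regions, with the main setting counted among them, these held in 18 and 18 of 18. Counts by percentile were 9 higher and 10 lower promoters at 72 h (12.5 and 13.9%, beside 19.1 and 10.9%) and 5 higher at 96 h (6.94%, beside 15.3%). In all PHx libraries 4 were lower (5.56%, beside 2.46%), and 4 also by fold enrichment (beside 2.99%). For regions the counts were 72 higher and 44 lower at 72 h (16.9 and 10.4%, beside 21.4 and 5.49%) and 43 and 39 at 96 h (10.1 and 9.18%, beside 13.9 and 6.53%). With the 50000 strongest intervals, 13, 16 and 11 of 157 regions were higher at 48, 72 and 96 h (8.28, 10.2 and 7.01%, beside 18.8, 20.9 and 16.6% of all regions) and 61, 52 and 44 lower (38.9, 33.1 and 28%, beside 23.9, 21.3 and 18.8%). With 50 kb flanks 53, 71 and 40 of 726 were higher (7.3, 9.78 and 5.51%) and 155, 139 and 124 lower (21.3, 19.1 and 17.1%), beside the background of the main regions.

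Leaving out 1 library relaxes the rule to 2 against 1 at a single time, where all counts rose, the background's too: the P450 share of higher promoters stayed under it in 12 of 12 cases (5.56 to 19.4%, beside 17.6 to 25.7%), and that of lower promoters was above it in 10 (23.6 to 37.5%, beside 22 to 31.6%). For regions these held in 11 and 12 of 12. Higher promoters ranged from 4 to 11 at 48 h (most without 48 h replicate 1), 9 to 14 at 72 h (without 72 h replicate 1), 7 to 12 at 96 h (without 96 h replicate 2) and 1 to 4 in all PHx libraries (without 0 h replicate 1). Lower promoters ranged from 22 to 24, 20 to 27 (without 0 h replicate 1), 17 to 23 (without 96 h replicate 2) and 7 to 16 (without 0 h replicate 1). In all PHx libraries without 0 h replicate 1, the 4 higher and 16 lower were 5.56 and 22.2% of members, beside 9 and 15.2% of coding promoters. Higher regions ranged from 50 to 96 (without 48 h replicate 1), 64 to 101 (without 72 h replicate 2) and 44 to 116 (without 96 h replicate 2), and lower regions from 116 to 172, 99 to 165 and 99 to 157, each highest without 0 h replicate 1.

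Turns of sign were counted only for named promoters at times where they were called by rank, not for uncalled ones. They were those of Cyp2a12 by percentile (0.04 at 72 h and 0.13 at 96 h) and by fold enrichment (0.08 at 96 h), Cyp2d10 by fold enrichment (0.03 and 0.08) and Cyp4a10 within 500 bp (0.32, 0.24 and 0.26). The cause of these shifts was not tested. Without read counts, ranks near the end of a list cannot be told from absence in a shorter list.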
